A study of Mus musculus with 6 samples.

Results

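Splicing factors and heterogeneous nuclear ribonucleoproteins (hnRNP proteins) were followed in neurospheres from wild-type mice and from mice with a conditional knockout of Slc22a17, a gene of the solute carrier family whose product is known as a receptor for the siderophore-binding protein lipocalin-2. The members were all genes of the expression table whose symbol begins with Srsf, Sf3a, Sf3b or Prpf followed by a digit, or with Hnrnp, U2af or Snrp. This gave 68 members of 14327 genes. Neurospheres are floating clusters of dividing neural stem and progenitor cells, here started from the hippocampus of pups at postnatal day 0 and grown with B27, N2, EGF and bFGF. The wild-type (WT) and conditional knockout (cKO) groups held 3 libraries each, and genotype was the only labelled difference between them. The sources used here do not give the strain, the sex of the pups, the promoter driving Cre or the number of animals behind a library. No label tells if replicate libraries were separate cultures or pups, so p-values measure only the spread between these libraries.

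Most mammalian genes carry introns, which the spliceosome removes from the primary transcript. The U1 and U2 small nuclear ribonucleoproteins (snRNPs) recognise the intron ends together with U2AF, each snRNP is built on a ring of Sm proteins, and PRPF proteins act in the tri-snRNP and in later rearrangements. SR proteins mostly promote the use of an exon and hnRNP proteins often oppose it, so the balance between them sets alternative splicing, which is extensive in the developing brain.

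None of the 67 tested members passed the adjusted threshold in either direction, and 54 of the 67 (80.6%) had a lower mean in the libraries labelled cKO. The differences were small: the median member differed by -0.068 on the log2(FPKM + 1) scale (cKO minus WT), with a range from -0.32 for Hnrnpa3 to 0.10 for Prpf18. FPKM is a fragment count scaled to transcript length and to library depth, so levels of different genes can be set side by side. The summed level of the tested members was 4476, 4685 and 4684 FPKM in WT and 4291, 4197 and 4382 FPKM in cKO, or 93.0% of WT. All 3 cKO sums lay below all 3 WT sums. The members of lowest p, all with lower means, included the hnRNP genes Hnrnpa2b1 and Hnrnpa3, the Sm ring genes Snrpg and Snrpf, and Srsf4 and Prpf40b, while the abundant core subunits Sf3b2 (-0.029), Snrpd2 (-0.023) and Prpf8 (-0.0064) differed little.

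The promoters of 6 of the named members, all with lower means, are shown as examples of short motifs in the family. They were taken in order of limma p among members with a run of at least 60 bases outside annotated exons and genes. Prpf40b, Snrpg and Snrpf, though of low p, are not shown. Each run is the stretch nearest the start site that lies before the start and outside every annotated exon, from RefSeq GRCm38.p6, written 5′ to 3′ on the gene's strand. The distance of a run from the start site used ranged from 0 bases (Prpf38b) to 154 bases (Hnrnpa2b1 and Hnrnpa3). Capitals mark matches to an ETS motif (CGGAAG), to the letters of the CCAAT box, or to a GC box (GGGCGG), on either strand. The intervals are chr6:51470049-51470144 (minus strand) for Hnrnpa2b1, chr2:75659009-75659104 (plus) for Hnrnpa3, chr4:131873410-131873529 (plus) for Srsf4, chr6:117900204-117900323 (plus) for Hnrnpf, chr17:80207370-80207459 (minus) for Srsf7 and chr3:108911730-108911849 (minus) for Prpf38b.
Hnrnpa2b1: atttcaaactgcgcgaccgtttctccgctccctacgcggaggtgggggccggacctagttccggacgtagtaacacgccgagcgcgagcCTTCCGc
Hnrnpa3: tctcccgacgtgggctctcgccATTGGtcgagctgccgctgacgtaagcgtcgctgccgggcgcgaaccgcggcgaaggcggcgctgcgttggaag
Srsf4: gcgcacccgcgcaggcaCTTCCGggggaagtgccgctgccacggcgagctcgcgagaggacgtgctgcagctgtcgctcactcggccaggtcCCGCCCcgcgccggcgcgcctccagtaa
Hnrnpf: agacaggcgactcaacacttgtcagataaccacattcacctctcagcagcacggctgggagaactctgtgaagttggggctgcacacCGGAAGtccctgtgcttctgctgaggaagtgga
Srsf7: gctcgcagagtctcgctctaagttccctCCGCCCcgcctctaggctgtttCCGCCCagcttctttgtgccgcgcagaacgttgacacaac
Prpf38b: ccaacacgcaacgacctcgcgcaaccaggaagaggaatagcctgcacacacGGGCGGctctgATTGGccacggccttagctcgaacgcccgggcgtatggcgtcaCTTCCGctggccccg

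Short ETS matches were present in the runs of Hnrnpa2b1, Srsf4, Hnrnpf and Prpf38b, and the runs of Hnrnpa3 and Srsf7 held none. Over all members, 58 of the 67 tested had an entry in the promoter table, with 79 start sites in all. In the 250 bases before the start, the ETS motif was present in 37 of the 79 (46.8%), against 25.3% of 12054 promoters of tested genes and 13.6% of all 32851 promoters. The core of the NRF1 motif (CGCANGCG) was present in 29.1% of member promoters, against 14.5% for tested genes and 6.76% for all promoters. An E2F motif (TTCCCGC) was found in 17.7%, 7.04% and 3.82% of the same sets. The CCAAT box was found in 46.8%, 35.8% and 33.8%, the GC box in 62.0%, 58.9% and 32.7%, and the letters TATAAA in 7.59%, 6.06% and 12.4%. The median GC content of the member promoters was 59.6%, that of promoters of tested genes 60.4% and that of all promoters 52.4%. Motifs were searched on both strands and may overlap each other, several start sites can belong to 1 gene, and a match describes the letters and not a bound site.

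The libraries were also checked for Slc22a17, Y-linked transcripts and cell type markers. Slc22a17 had levels of 181, 169 and 204 FPKM in WT. Libraries labelled cKO held 164, 166 and 187 FPKM, or 93.4% of WT (exact permutation p = 0.5, where the smallest p that 3 against 3 allows is 0.1). The log2 difference of -0.097 was -0.023 without WT 3. The groups overlapped, so the transcript level did not separate them, and a value over the whole gene does not check a deleted exon. The summed level of the Y-linked genes Ddx3y and Eif2s3y was 0.10, 0.07 and 25.9 FPKM in WT and 43.8 to 51.2 FPKM in cKO, so WT 1 and WT 2 lacked Y-linked transcripts that every cKO library held. Genotype and the sex of the cells cannot be told apart for those libraries. All 12 neural stem cell markers passed the filter, with a summed level of 3972 to 4175 FPKM in WT and 3665 to 3976 FPKM in cKO. Of 12 neuron markers, 10 were in the table and 8 of these averaged under 1 FPKM, Dcx, Snap25 and Syt1 among them. The other 2 were Map2, at a mean of 76.0 FPKM (log2 difference -0.019), and Tubb3. Tubb3 averaged 4.02 FPKM in WT and 5.15 FPKM in cKO, with every cKO library above WT (log2 difference 0.30, limma adjusted p = 0.279). Astrocyte markers summed to 7775 to 9979 FPKM in WT and 10403 to 10928 FPKM in cKO, with 9 of 12 higher in mean. At an unadjusted limma p under 0.05, 6 of them had higher values, beside 4.44% of all tested genes. In 6 every cKO library lay above WT, beside 7.07%. Proliferation markers summed to 613 to 720 FPKM in WT and 453 to 617 FPKM in cKO. Oligodendrocyte lineage markers summed to 1455 to 1879 FPKM in WT and 1375 to 1613 FPKM in cKO. Of the 12, 9 had a lower mean, beside 55.5% of all tested genes. At an unadjusted limma p under 0.05, 5 had lower and 0 higher values, beside 7.82% and 4.44%. The 3 with a higher mean were Gpr17 (log2 difference 0.93), Pdgfra (0.24) and Cspg4 (0.068). Microglia markers summed to 19.8 to 20.4 FPKM in WT and to 10.2, 26.7 and 27.5 FPKM in cKO, and 7 of 12 averaged under 1 FPKM. The part of these cell types in the member levels was not tested. In bulk cultures, fewer cells of a type and less RNA per cell cannot be told apart.

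Counts past the thresholds of limma's moderated test are read against all 11596 tested genes, those whose mean over the 6 libraries reached 1 FPKM. At a Benjamini-Hochberg adjusted p under 0.05, limma placed 0 of 67 members lower and 0 higher, beside 0.0172% of all tested genes lower (2 genes) and 0.00862% higher (1 gene). At an unadjusted p under 0.05, 10 members (14.9%) had lower values and 0 had higher values, beside 7.82% and 4.44% of all tested genes. Without WT 3 the count was 5 (7.46%), beside 8.63% of all tested genes in the same fit, and without cKO 2 it was 5 (7.46%), beside 7.24%. The members' share was thus near or below that of all genes when either of those libraries was left out. After scaling each library to a common median the count was 6 (8.96%), beside 5.92%. In 16 members (23.9%) every cKO library lay below every WT library, beside 10.2% of all tested genes. In 1 member (1.49%), Prpf18, every cKO library lay above, beside 7.07%. The share of members with a lower mean, 80.6%, stood beside 55.5% of all tested genes, whose median difference was -0.015. Against WT 3 alone, the WT library with Y-linked transcripts, 59 of the 67 members had a lower mean in cKO and the median was -0.093, beside 53.8% of all tested genes and a median of -0.011. The Y-linked level of WT 3 was 53.4% of the cKO mean. WT 3 was also the WT library with the highest mean log2 deviation of the members (0.025). The setting against WT 3 alone has a single WT library, assumed to vary as the cKO libraries do. Its p-values are therefore not set beside the others here.

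**Figure D1:**
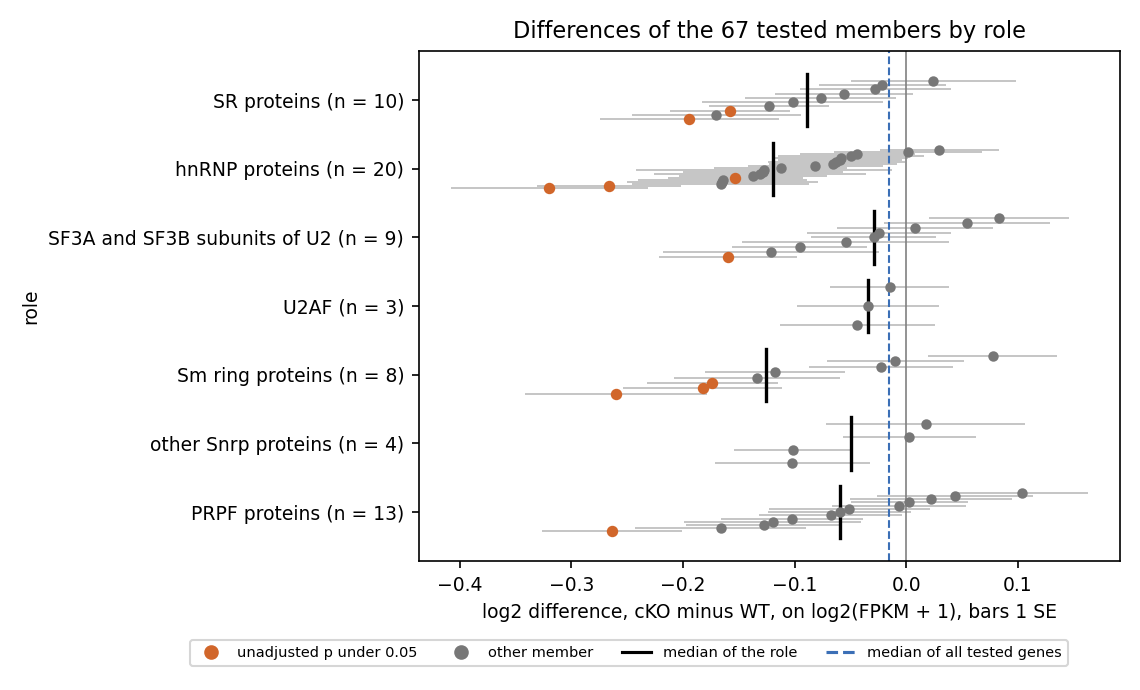
Each point is 1 of the 67 tested members, placed by its log2 difference (cKO minus WT) with a bar of 1 SE, in rows by role. Black lines give the median of a role and the dashed line the median of all tested genes (-0.015); the Sm ring (-0.13) and hnRNP (-0.12) medians lie farthest left.

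The members were measured at high and even levels. Their median level was 48.9 FPKM, with a range from 7.87 FPKM for Prpf4 to 327 FPKM for Hnrnpa2b1, against a median of 12.3 FPKM over all tested genes. Their median SD within a group was 0.071 on the log2 scale, against 0.086 for the 6532 tested genes of at least 10 FPKM. The median absolute difference of a member was 0.081, and so of the size of the spread between libraries of 1 group. Srsf12, an SR-related gene, was the only member under the filter, at 0.67, 0.81 and 0.54 FPKM in WT and 0.85, 0.62 and 0.56 FPKM in cKO.

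The hnRNP genes carried most of the difference in summed level. These proteins coat nascent transcripts, and many of them silence exons. The 20 genes summed to 2226, 2402 and 2308 FPKM in WT and to 2123, 2055 and 2129 FPKM in cKO, so the groups did not overlap and cKO stood at 90.9% of WT. The median difference was -0.12, and 18 of 20 (90%) had a lower mean, beside 55.5% of all tested genes. With lower cKO values, 8 had no overlap between the groups, beside 10.2%, and 3 had an unadjusted limma p under 0.05, beside 7.82%.

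Hnrnpa2b1 (Gene ID 53379, chromosome 6, 51460434 to 51470048, GRCm38.p6), an RNA-binding protein of exon silencing and RNA transport, was the most abundant member. It had WT levels of 349, 377 and 347 FPKM and cKO levels of 298, 303 and 289.9 FPKM. Each cKO library lay below the lowest WT library, with a log2 difference of -0.27 (SE 0.064, limma adjusted p = 0.235). Hnrnpa3 (Gene ID 229279, chromosome 2, 75659105 to 75669407), its close relative, had WT levels of 154, 171 and 163 FPKM and cKO levels of 147, 117 and 128 FPKM. It had the largest difference of the members, -0.32 (SE 0.088, limma adjusted p = 0.238), again without overlap, and cKO 2 was the lowest library. Hnrnpf (chromosome 6, 117900340 to 117925622), which binds runs of G, had WT levels of 151, 158 and 164 FPKM and cKO levels of 143, 136 and 146 FPKM. Its groups were separate by a narrow margin, and the log2 difference was -0.15 (limma adjusted p = 0.362).

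Hnrnpa1, the best known exon silencer of the family, had WT levels of 259, 312 and 264 FPKM and cKO levels of 254, 255 and 234 FPKM. Its groups did not overlap, but WT 2 stood above the other two WT libraries, and the difference of -0.16 had a limma adjusted p of 0.477. Hnrnpl, a binder of CA repeats, had WT levels of 112, 132 and 116 FPKM and cKO levels of 104, 101 and 115 FPKM. Here cKO 3 lay within the WT range (log2 difference -0.17, limma adjusted p = 0.450), and without WT 2 the difference was -0.095. Hnrnpd, known as AUF1 and as a binder of AU-rich elements, had WT levels of 24.6, 25.3 and 26.9 FPKM and cKO levels of 24.8, 20.7 and 22.9 FPKM. Its cKO 1 library lay among the WT libraries, and the difference was -0.16 (limma adjusted p = 0.430), or -0.099 without cKO 2. Hnrnpa0 averaged 87.6 ± 3.83 FPKM in WT and 79.6 ± 5.33 FPKM in cKO (SD, n = 3 each), and cKO 3 overlapped WT.

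Other abundant hnRNP genes were level between the groups within their spread. Hnrnpc, which binds U-rich tracts and forms the core particle with A and B proteins, had WT levels of 125, 136 and 123 FPKM and cKO levels of 125, 136 and 123 FPKM, a log2 difference of 0.0014. Hnrnpk, a binder of C-rich sequence, averaged 238 ± 9.45 FPKM and 229.6 ± 11.2 FPKM (SD, n = 3 each) with overlap. Hnrnph2, the 1 member on chromosome X, averaged 52.9 ± 1.89 FPKM in WT and 54.0 ± 1.08 FPKM in cKO. Hnrnpu, Hnrnpul1, Hnrnpul2 and Hnrnpdl completed the genes without overlap, at 91.5% to 97.0% of the WT mean. The largest hnRNP differences were those of Hnrnpa3 and Hnrnpa2b1, and the range over the 20 ran from -0.32 to 0.029. Hnrnpa1 and Hnrnpa3 have processed pseudogenes of near-identical sequence. The sources used here do not say how reads matching several places were counted, so these levels are uncertain to that extent.

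**Figure D2:**
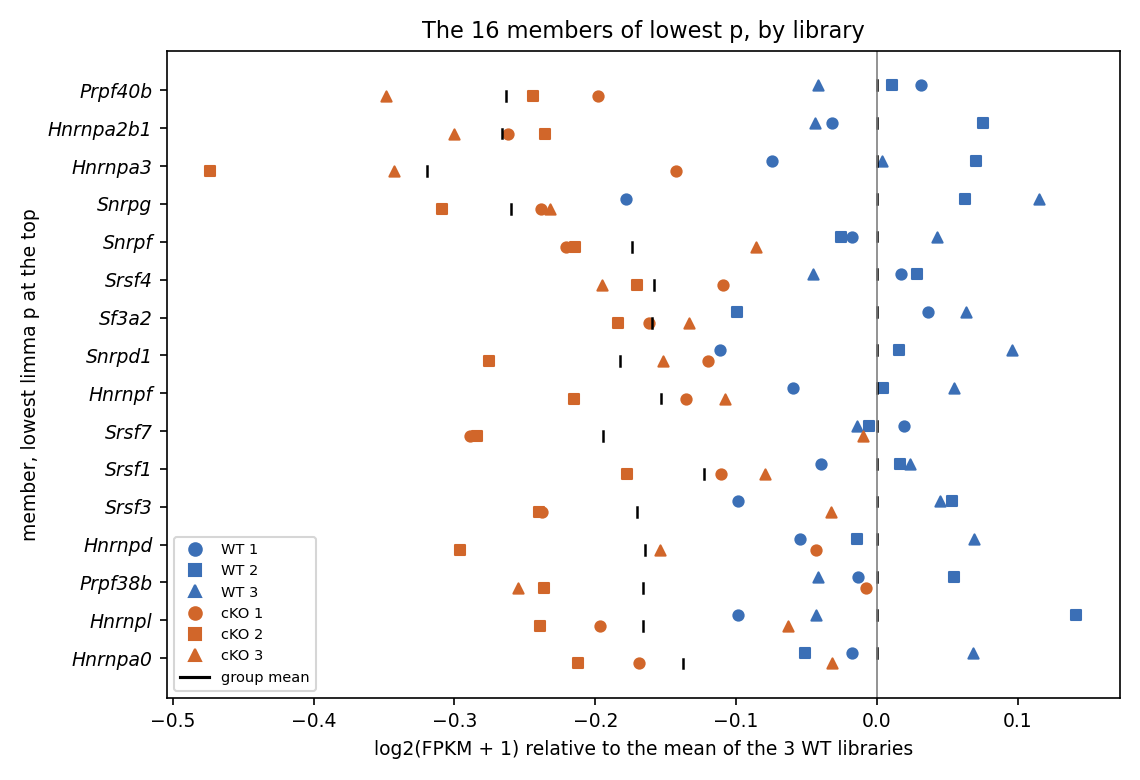
For the 16 members of lowest limma p, each library is placed by its log2(FPKM + 1) relative to the mean of the 3 WT libraries, with WT in blue, cKO in orange and black ticks at the group means. Prpf40b and Hnrnpa2b1 show the groups apart, while in Srsf7 the cKO 3 library (41.6 FPKM) lies within the WT values (41.5 to 42.5 FPKM).

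The SR proteins bind exonic enhancers through RNA recognition motifs and recruit U1 and U2AF through their arginine-serine domains. The 10 tested genes summed to 629 ± 16.03 FPKM in WT and 593 ± 23.0 FPKM in cKO (SD, n = 3 each), or 94.2% of WT. Of these, 9 had a lower mean, with a median difference of -0.089.

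Srsf4 (Gene ID 57317, chromosome 4, 131873530 to 131901725) had WT levels of 42.1, 42.5 and 40.3 FPKM and cKO levels of 38.5, 36.9 and 36.2 FPKM. The groups were apart, with a log2 difference of -0.16 (SE 0.054, limma adjusted p = 0.297). Srsf7 (chromosome 17, 80200080 to 80207369), which has a zinc knuckle beside its RNA recognition motif, had WT levels of 42.5, 41.8 and 41.5 FPKM and cKO levels of 34.1, 34.3 and 41.6 FPKM. Only cKO 1 and cKO 2 were low, and the difference was -0.19 (SE 0.080, limma adjusted p = 0.382). Srsf3, the smallest SR protein, had WT levels of 61.0, 67.9 and 67.5 FPKM and cKO levels of 55.3, 55.2 and 63.9 FPKM, with the same library high (log2 difference -0.17, limma adjusted p = 0.412). Srsf1, the founding member of the family, had WT levels of 54.2, 56.4 and 56.7 FPKM and cKO levels of 51.5, 49.2 and 52.7 FPKM. Its groups did not overlap, and the difference was -0.12 (limma adjusted p = 0.407).

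Srsf5, the most abundant SR gene, had WT levels of 152, 151 and 154 FPKM and cKO levels of 156, 139 and 144 FPKM, so the highest library of all was a cKO library. Srsf2 averaged 90.8 ± 8.02 FPKM in WT and 84.5 ± 6.24 FPKM in cKO (SD, n = 3 each), within the spread. Srsf6 was the 1 tested SR gene with a higher mean, at 57.7 ± 4.30 FPKM in WT and 58.7 ± 3.86 FPKM in cKO, also within the spread. Srsf9, Srsf10 and Srsf11 stood at 94.8% to 98.4% of WT and overlapped.

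SR genes and several hnRNP genes are known to limit their own expression through alternative transcripts that nonsense-mediated decay (NMD) removes. In GENCODE M21, 34 of the 67 tested members (50.7%) have at least 1 transcript annotated as an NMD target, against 29.6% of the 11519 tested genes found there. Among SR genes this held for 9 of 10, with Srsf10 the exception, and among hnRNP genes for 10 of 20. The 34 members with such a transcript had a median difference of -0.10 and 32 had a lower mean. The 33 without had a median of -0.051 and 22 had a lower mean. The calls were not more frequent with such a transcript. At an unadjusted limma p under 0.05, 4 of the 34 and 6 of the 33 had lower values, beside 7.82% of all tested genes. In 8 of each there was no overlap with lower cKO values, beside 10.2%. Over all tested genes the medians were -0.016 with and -0.015 without such a transcript. FPKM per gene sums the productive and the NMD transcripts, so which of them differed was not measured.

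The Sm proteins form the ring around the RNA of U1, U2, U4 and U5, and 8 genes were counted with them. They summed to 663 ± 33.3 FPKM in WT and 616 ± 22.8 FPKM in cKO (SD, n = 3 each), or 93.0% of WT, and 7 of 8 had a lower mean. Snrpg (Gene ID 68011, chromosome 6, 86371540 to 86378902) had WT levels of 105, 125 and 129 FPKM and cKO levels of 101, 96.2 and 102 FPKM. The lowest WT library lay just above the highest cKO library, and the difference was -0.26 (SE 0.081, limma adjusted p = 0.275). Snrpf (chromosome 10, 93583029 to 93589658) had WT levels of 43.0, 42.7 and 44.9 FPKM and cKO levels of 37.2, 37.4 and 41.0 FPKM, with no overlap (log2 difference -0.17, limma adjusted p = 0.297). Snrpd1 had WT levels of 62.8, 68.6 and 72.6 FPKM and cKO levels of 62.4, 55.9 and 61.0 FPKM. WT 1 and cKO 1 nearly met, and the difference was -0.18 (limma adjusted p = 0.360). Snrpg also has processed pseudogenes, with the same limit on its level.

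Other subunits of the same ring lay closer to WT. Snrpd2, the most abundant of them, had WT levels of 144, 147 and 151 FPKM and cKO levels of 134, 151 and 151 FPKM, a log2 difference of -0.023. Snrpe averaged 90.2 ± 2.41 FPKM in WT and 89.7 ± 5.38 FPKM in cKO (SD, n = 3 each). Snrpb and Snrpd3 stood at 91.0% and 92.0% of WT and overlapped it. Snrpn, an imprinted gene whose product SmN replaces SmB in neurons, had WT levels of 41.6, 45.2 and 45.7 FPKM and cKO levels of 45.6, 47.7 and 46.6 FPKM. It was the 1 Sm gene with a higher mean (log2 difference 0.077, limma adjusted p = 0.638), and it was singled out after its values were seen. Subunits of 1 ring thus had unlike differences, from -0.26 to 0.077.

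The remaining Snrp genes encode proteins of U1 (Snrpa, Snrpc) and U2 (Snrpa1, Snrpb2). Snrpa1 had WT levels of 24.8, 25.5 and 25.3 FPKM and cKO levels of 24.1, 23.3 and 22.8 FPKM. All cKO libraries were below WT by a small amount (log2 difference -0.10, limma adjusted p = 0.480). Snrpa averaged 92.9% of WT with overlap. Snrpc had WT levels of 50.6, 49.3 and 62.1 FPKM and cKO levels of 51.9, 55.4 and 55.9 FPKM, so WT 3 lay above every other library and the groups overlapped. Snrpb2 averaged 27.5 ± 1.41 FPKM in WT and 27.6 ± 0.877 FPKM in cKO (SD, n = 3 each).

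SF3A and SF3B hold the branch site in the U2 snRNP. The 9 genes summed to 97.3% of WT, with a median difference of -0.029, and 6 of 9 had a lower mean. Sf3a2 (chromosome 10, 80798735 to 80804922), which binds the U2 particle, had WT levels of 27.4, 24.8 and 27.9 FPKM and cKO levels of 23.7, 23.4 and 24.2 FPKM. Its groups did not overlap (log2 difference -0.16, SE 0.062, limma adjusted p = 0.351). Its partner Sf3a1 had a higher mean in cKO, at 22.8, 21.6 and 24.7 FPKM in WT and 24.6, 23.98 and 24.7 FPKM in cKO, with overlap. Sf3b1, which contacts the branch site, averaged 45.1 ± 2.08 FPKM in WT and 44.4 ± 2.69 FPKM in cKO (SD, n = 3 each). Sf3b2, the most abundant, had WT levels of 96.5, 95.1 and 95.4 FPKM and cKO levels of 90.2, 98.7 and 92.6 FPKM. Both lay within the spread.

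U2AF recognises the end of the intron, its large subunit U2af2 at the polypyrimidine tract and its small subunit U2af1 at the AG. U2af2 had WT levels of 87.9, 96.0 and 97.4 FPKM and cKO levels of 90.6, 87.9 and 96.0 FPKM, a log2 difference of -0.034 with a 95% interval from -0.18 to 0.11. U2af1 averaged 97.1% of WT (limma adjusted p = 0.851) and U2af1l4, a relative of the small subunit, 98.9%. The 3 genes overlapped in every case and summed to 97.7% of WT.

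Of the 13 PRPF genes, 9 had a lower mean, and the sum was 286 ± 4.02 FPKM in WT and 274 ± 9.89 FPKM in cKO (SD, n = 3 each). Prpf40b (Gene ID 54614, chromosome 15, 99295076 to 99317018), a U1-associated protein, had the lowest p of all members. It had WT levels of 18.3, 18.0 and 17.4 FPKM and cKO levels of 15.5, 15.0 and 13.8 FPKM. The groups were well apart at this level, and the difference was -0.26 (SE 0.063, 95% interval -0.41 to -0.12, limma adjusted p = 0.235). With library weights estimated by limma, its adjusted p was 0.0418, the only setting of those run in which a member passed. Under those weights 129 of all tested genes passed (1.11%), against 3 without them, and 1 of 67 members is 1.49%.

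Prpf38b, of the precatalytic spliceosome, had WT levels of 29.9, 31.4 and 29.3 FPKM and cKO levels of 30.1, 25.5 and 25.2 FPKM. Only cKO 2 and cKO 3 were low (log2 difference -0.17, limma adjusted p = 0.430). Prpf8, the large scaffold at the catalytic centre and the most abundant PRPF gene, had WT levels of 54.1, 55.2 and 49.1 FPKM and cKO levels of 52.7, 51.7 and 53.2 FPKM, a difference of -0.0064 with a 95% interval from -0.14 to 0.13. Prpf18, which acts in the second step of splicing, had WT levels of 12.9, 12.8 and 12.7 FPKM and cKO levels of 14.4, 13.4 and 13.6 FPKM. It was the 1 member whose cKO libraries all lay above WT (log2 difference 0.10, limma adjusted p = 0.512), and it was named after its values were seen. Prpf3, Prpf4, Prpf6 and Prpf31 of the tri-snRNP stood at 95.6% to 103% of WT and overlapped.

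By library, the mean log2 deviation of the 67 members from the WT mean was -0.029, 0.0037 and 0.025 in WT and -0.072, -0.12 and -0.053 in cKO. The lowest library was cKO 2 and the groups did not overlap. For hnRNP genes the cKO values were -0.090, -0.15 and -0.095, and for SR genes -0.085, -0.15 and -0.037. For Sm genes they were -0.14, -0.13 and -0.044, and WT 1 at -0.072 lay below cKO 3, so these groups overlapped. For PRPF genes cKO 1 was level with WT at 0.00081, and cKO 2 and cKO 3 were at -0.10 and -0.079. Over all tested genes the cKO values lay between -0.031 and -0.018.

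All 20 proliferation markers had a lower mean in cKO, with a median difference of -0.41. Of these, 18 had lower values at an unadjusted limma p under 0.05, beside 7.82% of all tested genes. At an adjusted p under 0.05 the count was 0, beside 0.0172%. In 11 every cKO library lay below every WT library, beside 10.2%. The mean deviation of the 20 markers was -0.12, 0.13 and -0.011 in WT and -0.45, -0.58 and -0.15 in cKO. The lowest was cKO 2 and the nearest to WT cKO 3. The members and all tested genes (-0.024, -0.031 and -0.018) had the same order in cKO. In WT the markers were highest in WT 2 and the members in WT 3, and both were lowest in WT 1. Mki67, a protein of dividing cells, had WT levels of 26.6, 34.5 and 26.5 FPKM and cKO levels of 22.0, 17.8 and 23.7 FPKM. Their part in the splicing factor levels was not tested.

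**Figure D3:**
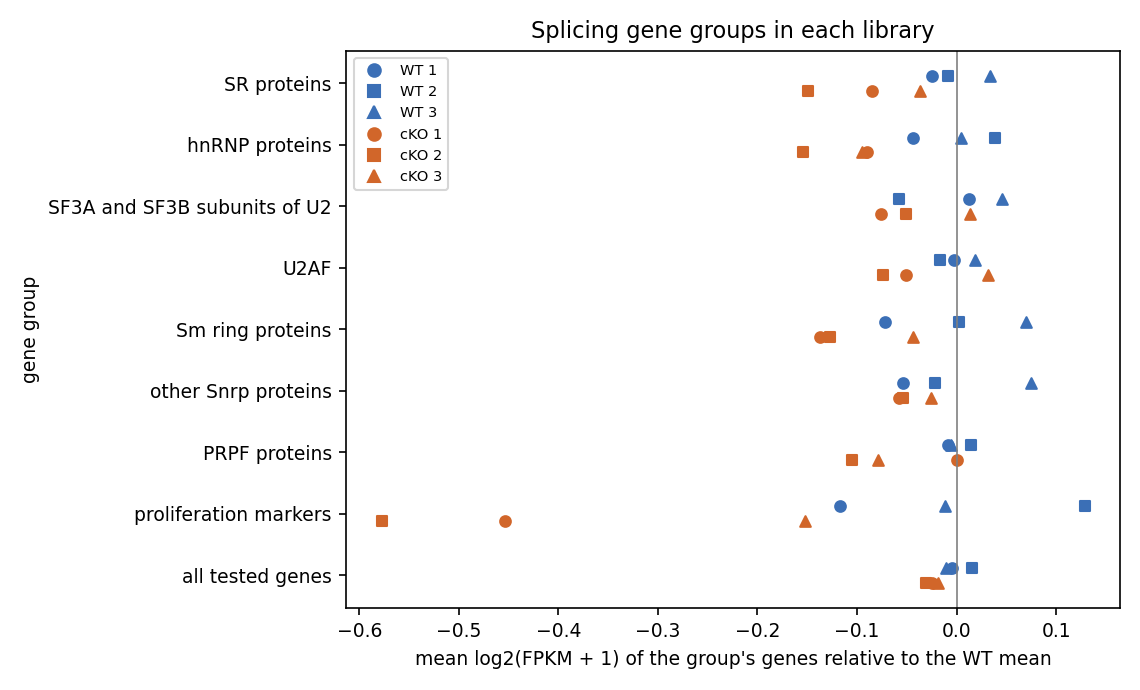
Each point is 1 library, placed by the mean log2(FPKM + 1) of a group's genes relative to the WT mean, with WT in blue and cKO in orange. The hnRNP genes lie between -0.15 and -0.090 in cKO and the proliferation markers between -0.58 and -0.15, both lowest in cKO 2. All tested genes lie near 0 and are also lowest in cKO 2 (-0.031).

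Other genes of the splicing machinery were taken from lists of known components that the symbol rule leaves out. Of 75 other snRNP and spliceosome core genes, 52 (69.3%) had a lower mean, beside 55.5% of all tested genes. At an unadjusted limma p under 0.05, 9 had lower and 1 higher values, beside 7.82% and 4.44% of all tested genes. The adjusted threshold was passed by 0. Their median difference was -0.051. Lsm4, of the ring on U6, had WT levels of 54.6, 57.6 and 59.7 FPKM and cKO levels of 44.8, 40.7 and 48.2 FPKM, without overlap. Its difference of -0.36 (limma adjusted p = 0.185) was larger than that of any Sm gene, and Lsm2 of the same ring differed by -0.26 (adjusted p = 0.235). Ppie, a cyclophilin, and Isy1, a protein of the catalytic complex, differed by -0.21 and -0.22.

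Of 73 further splicing regulators, 71 were in the table and 62 were tested. Of these, 49 (79.0%) had a lower mean, beside 55.5% of all tested genes, and the median difference was -0.065. At an unadjusted limma p under 0.05, 6 had lower and 1 higher values, beside 7.82% and 4.44% of all tested genes. The adjusted threshold was passed by 0. Ptbp1, which represses neuronal exons in progenitors, had WT levels of 60.6, 69.0 and 55.9 FPKM and cKO levels of 44.4, 53.8 and 55.1 FPKM. WT 3 and cKO 3 nearly met (log2 difference -0.27, limma adjusted p = 0.337), and without cKO 1 the difference was -0.17. Its neuronal paralog Ptbp2 had WT levels of 23.4, 25.1 and 26.8 FPKM and cKO levels of 33.6, 26.4 and 27.2 FPKM, with overlap (log2 difference 0.20, limma adjusted p = 0.454); it was named after its values were seen. Khdrbs3, Dazap1 and Rbm14 had lower means without overlap, with differences from -0.24 to -0.20. In this list 9 genes averaged under 1 FPKM, the neuronal regulators Rbfox1, Rbfox3, Srrm3 and Srrm4 among them. By contrast, Nova1, Nova2, Elavl3, Elavl4, Celf4 and Celf5 averaged 1.19 to 7.24 FPKM and were tested. Elavl4 was the 1 gene with higher values at an unadjusted limma p under 0.05 (log2 difference 0.30, limma adjusted p = 0.391).

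**Figure D4:**
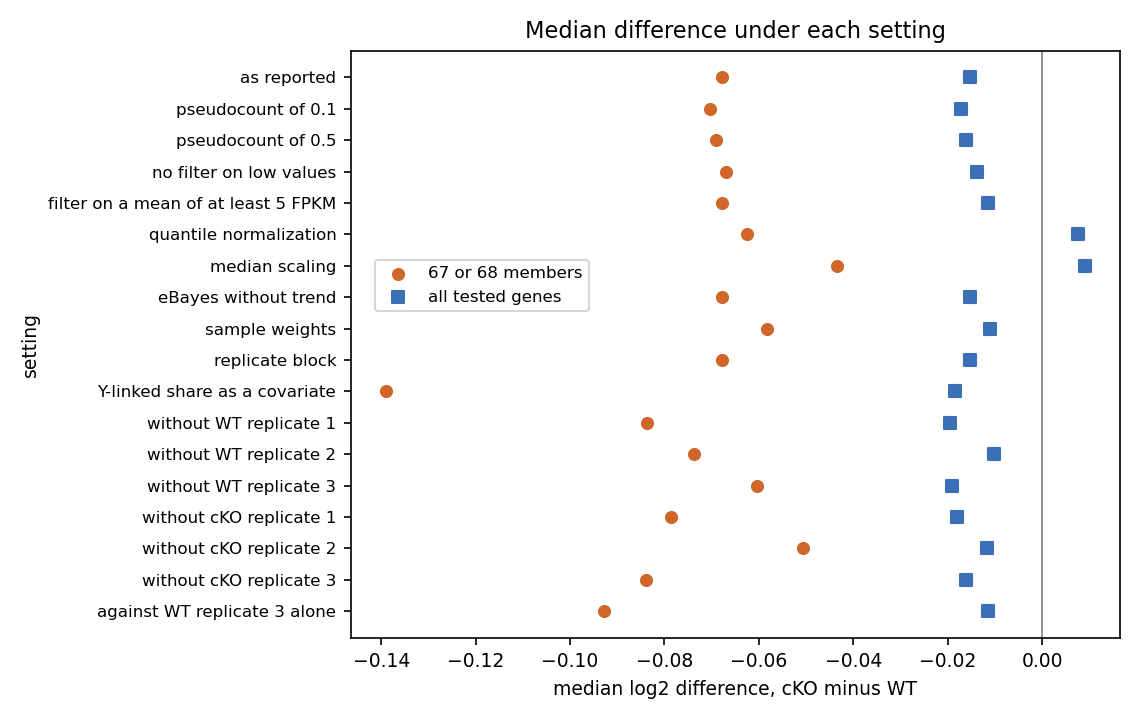
The median log2 difference (cKO minus WT) is plotted for each processing setting, with circles for the members and squares for all tested genes. The member median lies between -0.14 (Y-linked covariate, which nearly follows genotype) and -0.043 (median scaling), and below that of all tested genes in every setting run. The median of all genes is above 0 under quantile normalization (0.0076) and median scaling (0.0090).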

How the data were processed

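The authors deposited 1 table of FPKM values for the 6 neurosphere libraries, and per the labels' protocols a BGISEQ service did the sequencing and analysis. The reads were aligned with Bowtie2 to GRCm38 (mm10) per the submitters' processing notes. The sources used here name no version, annotation, counting method or strand setting. FPKM keeps no read totals, so precision rests on the spread between libraries and not on depth. The values of a library summed to 409565 to 424768 FPKM.

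Genes whose mean reached 1 FPKM were tested (11596 of 14327) with limma 3.58.1 in R 4.3.3 on log2(FPKM + 1), with a trend and 2-sided p-values adjusted by Benjamini and Hochberg over all tested genes. The pseudocount of 1 understates differences of low genes. All 6 libraries entered, with no covariate. The fit was checked on simulated data whose planted differences were larger than that of any member. That check therefore does not show if differences as small as those of the members would be found. The members and lists were chosen with earlier results of these data known. Named are the 16 tested members of lowest p, and the most abundant member and that of lowest p in each role. Also named are 4 genes of lowest p in each other list of splicing genes. Marker genes of cell types and of proliferation were not named by that rule. Others are examples of a role chosen with values in view. Symbols were matched to RefSeq GRCm38.p6 (68 of 68 members). Any pair of libraries held identical values in 1.31% to 1.91% of genes, so none was a copy of another.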

Additional observations from a re-analysis of the deposited data

How the results depend on the processing

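The table does not give read totals, so what depth limits could not be computed. The count of members with lower values at an unadjusted limma p under 0.05, 10 as reported, was 6 after median scaling. Leaving out 1 library at a time gave 5 to 13, beside 5.39% to 8.63% of all tested genes; the count of 5, 7.46% of members, came without WT 3 (8.63% of all genes) and without cKO 2 (7.24%). Against WT replicate 3 alone, an alternative added after seeing the data, it was 4, beside 2.32% of all genes, but with 1 WT library that is assumed to vary as the others do it is not comparable with 3 against 3. With library weights, 1 member (Prpf40b) passed the adjusted threshold and 1 (Snrpn) had higher values at an unadjusted p under 0.05, where 129 of all tested genes (1.11%) passed. With a covariate for the Y-linked share, the median member difference was -0.14. That share was 0.206%, 0.144% and 53.4% of the cKO mean in WT and 90.3% to 106% in cKO. It nearly followed genotype and was separated from it mainly by WT 3, so values from that fit are imprecise. In that fit 0 of all tested genes passed the adjusted threshold. The other values of the counts stayed within 1.5 times, and those of the median within 1 SD between libraries. Slc22a17 (-0.097) passed the threshold in no setting and kept its sign, but its size varied: -0.16 to -0.023 when 1 library was left out, the smallest without WT 3, -0.24 against WT replicate 3 alone and -0.45 with the Y-linked covariate. The alternatives were pseudocounts of 0.1 and 0.5, no filter and a filter at 5 FPKM, quantile normalization, median scaling, a fit without trend, library weights, a replicate block and the Y-linked covariate. Reversals were found only among differences near 0 or under the Y-linked covariate. That covariate gave -0.045 for Ppp1r10, 0.20 for Prpf8, 0.064 for Ptbp1, 0.023 for Sf3b2, -0.41 for Snrpc, -0.0093 for Snrpn and -0.031 for Srpk2. Median scaling gave 0.018 for Prpf8 and 0.0017 for Snrpd2, and weights gave 0.015 for Snrpd2 and 0.046 for U2af2. Against WT replicate 3 alone, Prpf8 was at 0.094 and Snrpc at -0.19. Leaving out 1 library gave -0.057 to 0.026 for Prpf8, -0.043 to 0.12 for Snrpc and -0.051 to 0.032 for Snrpd2. The cause was not tested.

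The replicate numbers are shared between groups, and the correlations of same-numbered libraries were -0.043, 0.30 and 0.26, so the numbers were not taken to pair the samples. With the number as a replicate block, 14 members had lower values at an unadjusted limma p under 0.05, 0 passed the adjusted threshold and the median difference was -0.068. In that fit 9.60% of all tested genes were lower at that p and 22 passed. WT 1 correlated best with cKO 2 (0.12), not with its own number.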

Other observations

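Regulators that act on SR proteins (kinases, phosphatase regulators and nuclear import factors) summed to 99.9% of WT in cKO. Of 18 listed, 17 were tested, 7 had a lower and 10 a higher mean, and the median difference was 0.0092. The mean log2 deviation of the list was -0.020, 0.035 and -0.015 in WT. In cKO it was 0.069, -0.045 and -0.010, so only cKO 1 lay above the WT libraries. Limma placed 1 higher and 0 lower at an unadjusted p under 0.05, beside 4.44% and 7.82% of all tested genes. The adjusted threshold was passed by 0. Ppp1r10, a nuclear regulator of protein phosphatase 1, had WT levels of 23.3, 21.7 and 24.6 FPKM and cKO levels of 26.2, 25.3 and 25.96 FPKM, without overlap (log2 difference 0.15, limma adjusted p = 0.382). Dyrk1b, a kinase, averaged 10.7 ± 0.410 FPKM in WT and 12.1 ± 1.04 FPKM in cKO (SD, n = 3 each), also without overlap, and its difference of 0.17 was 0.11 without cKO 3. Srpk2, which phosphorylates SR proteins in the cytoplasm, had WT levels of 19.1, 19.8 and 20.6 FPKM and cKO levels of 25.3, 20.02 and 22.3 FPKM, so cKO 2 lay within the WT range, and the difference of 0.17 was 0.087 without cKO 1. Prpf4b, a kinase that is also a member by its symbol, differed by -0.13 (limma adjusted p = 0.501). Whether this list and the SR genes differ was not tested.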
